A study of Homo sapiens with 15 samples.

Results

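Metallothioneins and the zinc exporter SLC30A1 were followed in MDA-MB-231 cells, a triple-negative breast cancer line, through every probe whose design name or current symbol was MT1A, MT1B, MT1E, MT1F, MT1G, MT1H, MT1X, MT2A, MT3 or SLC30A1. The rule gave 16 probes for 10 genes, 15 of them for metallothioneins and 1 for SLC30A1, among 41000 gene probes on the array with 17519 distinct current symbols. There were 15 Agilent 2-colour arrays, 5 for each of 3 treatments, and the labels call the 5 biological replicates. On each array the Cy5 channel held cRNA of the treated cells and the Cy3 channel cRNA of untreated MDA-MB-231 cells, with collection 24 h after treatment. The shCtBP2 cells carry a stable RNA interference against CtBP2, a transcriptional co-regulator that senses NADH. According to the methods the silencing used a plasmid shRNA with puromycin selection, and its control was a scrambled construct, whereas the labels name untreated cells in the Cy3 channel throughout. HIPP and P4 are small-molecule CtBP2 inhibitors, both sodium phenylpropanoates, with a hydroxyimino group in HIPP and a hydrazone in P4. The labels give no dose for either compound, so the comparison between them is of the treatments as applied.

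Metallothioneins are small cysteine-rich proteins that bind zinc, copper and cadmium, and buffer the free zinc of the cell. Their genes are switched on by zinc and cadmium through the factor MTF1, which binds metal response elements in their promoters, and oxidants and glucocorticoids can also raise them. The MT1 genes and MT2A are the widely expressed forms, MT3 is best known from the brain and MT4 from stratified epithelium. SLC30A1 exports zinc across the plasma membrane and is a classical MTF1 target as well.

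In GRCh38.p14 the family lies on chromosome 16, where 13 family genes sit between 56565073 and 56684196, a stretch of 119.1 kb, and SLC30A1 is on chromosome 1 at 211571568 to 211579161. The probes are 60 bases long and their deposited positions are in hg17, for which no gene annotation was used here, so exons and UTRs are not given for them. Because the genes are near copies, 4 of the 15 metallothionein probes list transcripts of more than 1 gene in the scanner annotation. The MT1A probe A_23_P54840 also lists MT1M, and the MT1H probe A_23_P163782 lists MT1M too. The MT1H probe A_23_P414343 lists MT1H, MT1L and MT1X, and the MT1X probe A_23_P303242 lists MT1A, MT1H and MT1X. Among the 15 metallothionein probes, 3 pairs of different genes overlapped over at least 40 bases with at least 90% of the bases the same. The first of the pairs shown here shares 55 of 58 overlapping bases and the second 50 of 54, and capitals mark the bases that differ between the partners. The third pair, MT1H A_23_P414343 with MT1X A_24_P125096, shares 43 of 46. Outside the 15, the MT1L probe A_23_P427703 shares 38 of 42 bases with the MT1E probe A_23_P206724. They are shown because values of such probes cannot be assigned to 1 gene with certainty.
MT1X A_23_P303242: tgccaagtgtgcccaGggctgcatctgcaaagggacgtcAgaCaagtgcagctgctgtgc
MT1H A_23_P414343: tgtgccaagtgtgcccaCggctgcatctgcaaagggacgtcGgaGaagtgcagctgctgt
MT1A A_23_P54840: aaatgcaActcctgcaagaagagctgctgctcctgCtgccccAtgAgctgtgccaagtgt
MT1H A_23_P163782: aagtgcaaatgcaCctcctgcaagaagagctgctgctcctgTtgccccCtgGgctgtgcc
In the hg17 positions of the scanner files these are chr16:55275399-55275458, chr16:55262337-55262396, chr16:55230706-55231309 and chr16:55261957-55262342, in the same order, and the last 2 span a gap longer than the probe. The tgc triplets, which encode cysteine, recur along all 4 sequences, with 6, 7, 8 and 8 cysteine codons in the open frame.

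The promoters were searched for the core of the metal response element, written here as TGCACNC and TGCGCNC, on both strands and with no overlapping matches in the promoters printed. RefSeq promoter sequences (GRCh38.p14) were matched for 5 of the 10 genes, and the 250 bases upstream of the annotated start were used. The windows held 7 matches for MT2A, 8 for MT1H, 4 for MT1X, 3 for MT1B and 1 for SLC30A1. Of 35116 promoters with windows of the same length, 24.8% held at least 1 match, 1.58% at least 3 and 0.37% at least 4. A match is a description of the letters, not a bound site. MT1H, MT2A, MT1X and SLC30A1 are printed, since they span the range of matches, with matches to either motif in capitals.
MT2A, chr16:56608334-56608583, plus strand: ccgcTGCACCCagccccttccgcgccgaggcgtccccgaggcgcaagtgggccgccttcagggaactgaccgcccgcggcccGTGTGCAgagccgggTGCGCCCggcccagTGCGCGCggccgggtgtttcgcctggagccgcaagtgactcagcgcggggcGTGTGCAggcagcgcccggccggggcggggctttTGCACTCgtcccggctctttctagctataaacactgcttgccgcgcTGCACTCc
MT1H, chr16:56669564-56669813, plus strand: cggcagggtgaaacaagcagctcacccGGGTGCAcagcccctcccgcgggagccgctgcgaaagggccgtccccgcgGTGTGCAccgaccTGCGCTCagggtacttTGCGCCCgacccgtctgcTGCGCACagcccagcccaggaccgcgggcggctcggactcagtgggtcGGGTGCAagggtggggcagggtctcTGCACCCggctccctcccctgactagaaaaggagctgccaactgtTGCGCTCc
MT1X, chr16:56682220-56682469, plus strand: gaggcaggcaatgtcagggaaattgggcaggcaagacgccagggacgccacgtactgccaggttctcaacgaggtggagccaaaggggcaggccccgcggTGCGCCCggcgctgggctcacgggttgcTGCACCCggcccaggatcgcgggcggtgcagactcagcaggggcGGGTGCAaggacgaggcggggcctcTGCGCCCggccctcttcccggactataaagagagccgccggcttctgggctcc
SLC30A1, chr1:211579162-211579411, minus strand: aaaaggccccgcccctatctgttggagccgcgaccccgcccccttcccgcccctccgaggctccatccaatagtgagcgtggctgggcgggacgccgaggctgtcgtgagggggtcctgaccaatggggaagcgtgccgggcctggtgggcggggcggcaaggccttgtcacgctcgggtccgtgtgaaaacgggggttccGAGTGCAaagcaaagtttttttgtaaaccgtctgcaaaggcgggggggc
The window of MTF1 itself held 0 matches.

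The arrays measured the family well, and the cells carried the markers of the line. With 43376 gene spots per array, the control channel had 64.9 to 81.0% of them well above background and the treated channel 65.2 to 77.5%, and 0 spots were saturated. Of the 15 probes for 7 genes typical of MDA-MB-231 cells, including VIM, CD44 and AXL, 15 were well above background in both channels on every array. Of the luminal markers, CDH1 and PGR were above background on no array, while FOXA1, GATA3, EPCAM and ERBB2 each had a probe above it on every array. None of the 4 fibroblast and 5 white blood cell probes was above background throughout. Correlations of all log2 ratios between arrays of the same treatment ran from 0.03 to 0.77 (median 0.49, 30 pairs), so the replicates were uneven. As a check of the labels, the 2 CTBP2 probes were lower on 5 of 5 shCtBP2 arrays, with log2 ratios of -0.59 to -0.24 (A_23_P63897, mean -0.42 ± 0.14, SD, adjusted p = 0.153) and -0.58 to -0.22 (A_24_P103922, mean -0.39 ± 0.17, SD, adjusted p = 0.0178).

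Values are log2 ratios of treated over control signal, given as mean ± SD with n = 5 arrays unless stated, so a log2 ratio above 0 is a higher signal in treated cells. A probe was called when its adjusted p in the limma fit was under 0.05 and its linear fold was past the limit in the methods, 1.5 for shCtBP2, 2.5 for HIPP and 1.8 for P4. As the dyes were not exchanged, a dye effect of a probe cannot be told apart from a treatment effect, except in differences between treatments. In total RNA from a culture, more cells expressing a gene and more RNA per cell cannot be told apart either.

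The MT1 and MT2A signals were higher with both inhibitors, at close means, and near the control signals with shCtBP2. The 13 MT1 and MT2A probes had a median log2 ratio of 1.08 (2.11-fold) on the HIPP arrays and 1.03 (2.05-fold) on the P4 arrays, against -0.11 on the shCtBP2 arrays. The medians over all 36490 probes tested were 0.08, 0.10 and 0.03. With HIPP, 12 of the 13 passed the adjusted p and were higher on every array that measured them, and with P4 12 of the 13 did so as well. Among all probes tested, 26.5% were higher on all 5 HIPP arrays and 17.5% on all 5 P4 arrays. In both treatments the exception was the MT1E probe A_23_P420942, which passed with HIPP when HIPP replicate 1 was left out. On the shCtBP2 arrays 11 of the 13 means were below 0 and only MT1F passed, as a lower signal.

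**Figure D1:**
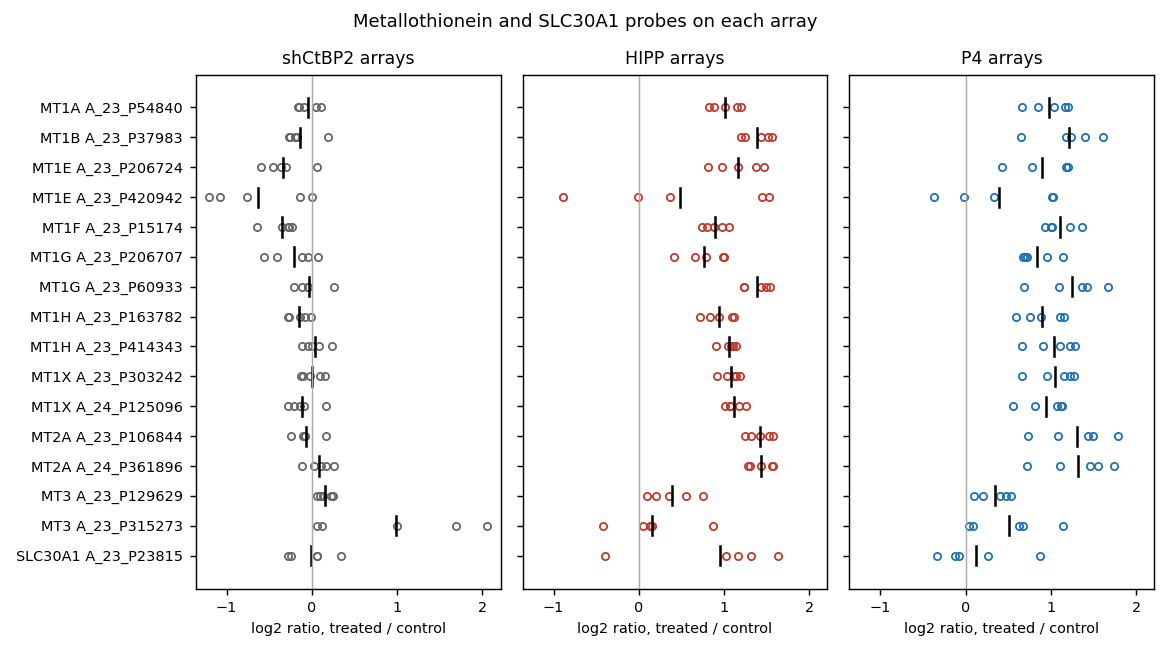
Log2 ratio of treated over control signal for the 16 metallothionein and SLC30A1 probes, with 1 circle for each array (5 per treatment) and a bar at the mean. On the HIPP and P4 arrays the MT1 and MT2A probes cluster near a log2 ratio of 1, with medians of 1.08 and 1.03, while on the shCtBP2 arrays they lie around 0 with a median of -0.11.

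Among all 16 probes, 4 were called higher with HIPP, where 4.12% of the probes tested were called higher, and 0 were called lower. Without dye normalization 0 were called with HIPP, where the MT1 and MT2A median was 0.66 and most of the probes were not tested, and 8 with P4. With P4, 11 were called higher, where 4.43% of the probes tested were. With shCtBP2, 1 probe of MT3 was called higher, where 3.35% were. The limit of 2.5-fold for HIPP is what keeps its count low. At the adjusted p alone 14 of the 16 were higher with HIPP (26.2% of all probes tested) and 13 of the 16 with P4 (17.3%), and at a common limit of 1.5-fold the counts were 13 for HIPP (18.0%) and 12 for P4 (9.34%). All 16 probes passed the filter that removes the lowest 11% of interquartile ranges in the HIPP and the P4 arrays, whereas 9 of the 16 were removed on the shCtBP2 arrays.

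MT2A, the main form in most tissues, had the largest mean log2 ratios among the 10 genes on the HIPP and on the P4 arrays. Its probe A_24_P361896 (chr16:55200782-55200841, hg17) had log2 ratios of 1.31, 1.44, 1.28, 1.57 and 1.58 on HIPP arrays 1 to 5 and 1.56, 0.72, 1.10, 1.46 and 1.74 on P4 arrays 1 to 5. On the shCtBP2 arrays they were 0.02, -0.12, 0.26, 0.17 and 0.10. Every inhibitor array lay above every shCtBP2 array, and P4 replicate 2 was the lowest of the inhibitor arrays. The means were 1.43 ± 0.14 with HIPP (2.70-fold, adjusted p = 2.71e-07, and 1.13 with adjusted p = 0.0141 without dye normalization), 1.32 ± 0.41 with P4 (2.49-fold, adjusted p = 3.99e-06) and 0.09 ± 0.14 with shCtBP2.

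The second MT2A probe, A_23_P106844 (chr16:55200833-55200892, hg17), repeated this pattern with 1.42 ± 0.14 (2.67-fold, adjusted p = 3.05e-07) for HIPP and 1.30 ± 0.41 (2.47-fold, adjusted p = 4.24e-06) for P4. Its shCtBP2 mean was -0.07 ± 0.15. The processed signals behind it were high. On the HIPP arrays the control channel read 74628 to 125508 and the treated channel 176557 to 362923, without overlap. On the P4 arrays they read 51579 to 71973 and 109123 to 194039, again without overlap. On the shCtBP2 arrays the channels overlapped, at 73134 to 97096 for control and 70670 to 82160 for treated cells.

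MT1X and MT1G followed MT2A. For MT1X, which responds to zinc like the other MT1 genes, the probe A_24_P125096, which lists no other gene but shares 43 of 46 overlapping bases with an MT1H probe, read 1.07, 1.17, 1.01, 1.06 and 1.26 on the HIPP arrays, 1.07, 0.56, 0.82, 1.12 and 1.13 on the P4 arrays and -0.09, -0.28, 0.16, -0.14 and -0.21 on the shCtBP2 arrays. The inhibitor arrays did not overlap the shCtBP2 arrays. The means were 1.11 ± 0.10 with HIPP (adjusted p = 2.99e-07) and 0.94 ± 0.25 with P4 (adjusted p = 9.33e-06), and the HIPP mean fell short of the 2.5-fold limit. MT1G was read by 2 probes that differed in size. A_23_P60933 gave 1.39 ± 0.14 with HIPP and 1.25 ± 0.38 with P4 (adjusted p = 2.96e-07 and 4.95e-06) and was called in both. A_23_P206707 gave 0.77 ± 0.25 and 0.83 ± 0.20 (adjusted p = 5.92e-05 and 0.000108), past the adjusted p and short of the fold limits, the P4 mean lying just under its limit of 0.85 on the log2 scale.

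MT1B and MT1E rose too, although the MT1E probes did not behave alike. MT1B reached 1.39 ± 0.16 with HIPP (adjusted p = 2.8e-07) and 1.21 ± 0.36 with P4 (adjusted p = 6.19e-06). The MT1E probe A_23_P206724 read 0.81, 1.16, 0.97, 1.37 and 1.47 with HIPP and, with replicate 1 left out for a flagged spot, 0.43, 0.78, 1.19 and 1.18 with P4. On the shCtBP2 arrays it read -0.46, -0.60, 0.06, -0.36 and -0.31, so that replicate 3 was the only one above 0 and no inhibitor array overlapped them. The means were 1.16 ± 0.27 (adjusted p = 7.64e-06), 0.89 ± 0.37 (n = 4, adjusted p = 0.000587) and -0.33 ± 0.25 (adjusted p = 0.115). The other MT1E probe, A_23_P420942, spread from -0.89 to 1.52 over the HIPP arrays and from -0.37 to 1.03 over the P4 arrays. Neither mean passed the test, at 0.49 ± 1.02 (adjusted p = 0.198) and 0.40 ± 0.62 (adjusted p = 0.332). Without HIPP replicate 1, which read -0.89, the HIPP mean of this probe was 0.83 and passed the adjusted p.

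MT1A and MT1H, whose probes share sequence as shown in the aligned pairs, gave mid-sized ratios. MT1A read 1.20, 1.15, 0.89, 0.83 and 1.01 on the HIPP arrays and 1.20, 0.66, 0.84, 1.04 and 1.17 on the P4 arrays, with -0.16 to 0.11 on the shCtBP2 arrays, and the inhibitor arrays all lay above the shCtBP2 arrays. Its means were 1.01 ± 0.16 (adjusted p = 6.33e-07) and 0.98 ± 0.23 (adjusted p = 5.22e-06). The MT1H probes gave 0.94 ± 0.17 and 1.06 ± 0.09 with HIPP and 0.90 ± 0.24 and 1.03 ± 0.25 with P4, and all 4 means passed the adjusted p.

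MT1F rose with both inhibitors and was lower with shCtBP2. The probe A_23_P15174 (chr16:55250578-55250637, hg17) read 0.80, 1.06, 0.88, 0.98 and 0.75 with HIPP and 1.01, 1.22, 1.00, 0.93 and 1.36 with P4. It read -0.26, -0.35, -0.23, -0.65 and -0.28 with shCtBP2, below 0 on all 5 arrays and with replicate 4 the lowest. The means were 0.89 ± 0.13 (adjusted p = 1.3e-06), 1.10 ± 0.18 (adjusted p = 1.44e-06) and -0.35 ± 0.17 (adjusted p = 0.0178), the last short of the 1.5-fold limit. Without shCtBP2 replicate 2 or 4 the last adjusted p was 0.0551 or 0.0895, and with normexp and loess it was 0.145. At the adjusted p alone 7.30% of all probes tested were lower with shCtBP2. Signals of this probe were low, 210 to 259 in the control channel of the shCtBP2 arrays and 166 to 194 in the treated channel, without overlap.

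MT3, the form known from neurons, responded little. The probe A_23_P129629 was higher on all 15 arrays, with 0.39 ± 0.27 for HIPP (adjusted p = 0.00434), 0.34 ± 0.18 for P4 (adjusted p = 0.0175) and 0.15 ± 0.08 for shCtBP2 (adjusted p = 0.345), none past the fold limits, and its HIPP mean turned to -0.23 without dye normalization. The probe A_23_P315273 was called higher with shCtBP2, with processed ratios of 1.00, 2.05, 1.69, 0.12 and 0.06 and an adjusted p of 0.024 in the limma fit. Replicates 1, 2 and 3 were high and replicates 4 and 5 near 0. This probe was not well above background in the control channel of any array, and in the treated channel it was so on 1 of the 5 shCtBP2 arrays. The ratios of this probe are therefore not measured changes, and its signals give no bound. With normexp background correction and loess its mean was 0.03 (adjusted p = 0.691), and without replicate 1, 2 or 3 the call was lost (adjusted p of 0.0646 to 0.117).

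SLC30A1, the exporter, passed the adjusted p with HIPP and not with P4. The difference between the inhibitors did not pass in the limma fit (adjusted p = 0.116). The probe A_23_P23815 (chr1:208137237-208137296, hg17) read 1.63, 1.16, 1.32, -0.39 and 1.03 on HIPP arrays 1 to 5, so that 4 arrays lay above 1 and replicate 4 below 0. On the P4 arrays it read -0.07, 0.87, 0.26, -0.34 and -0.12, and on the shCtBP2 arrays 0.34, 0.06, 0.06, -0.28 and -0.25. Both of these groups straddled 0. The means were 0.95 ± 0.78 with HIPP (1.93-fold, adjusted p = 0.003, short of the 2.5-fold limit), 0.12 ± 0.47 with P4 (adjusted p = 0.708) and -0.01 ± 0.26 with shCtBP2. Over the alternatives the HIPP mean ran from 0.25 to 1.28. Without HIPP replicate 4 the HIPP mean was 1.28 (adjusted p = 3.48e-05). On that array SLC30A7 and 5 of the 13 MT1 and MT2A probes were also the lowest of their group, among them MT1A and both MT1H probes, while the MT2A probes read 1.57 and 1.53.

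**Figure D2:**
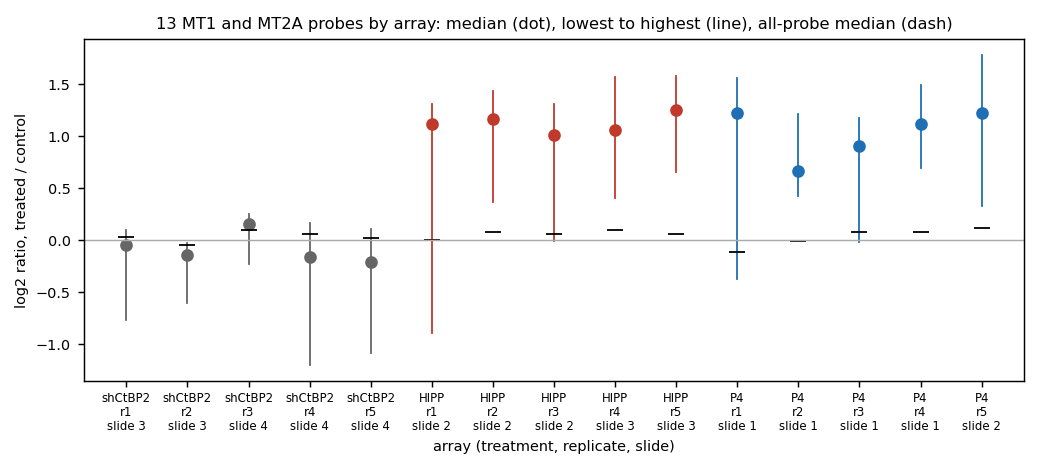
Median (dot) and range (line) of the log2 ratios of the 13 MT1 and MT2A probes on each array, with the median of all probes (dash), by treatment, replicate and slide. The HIPP medians lie between 1.01 and 1.26 and the P4 medians between 0.66 and 1.22, above the shCtBP2 medians of -0.21 to 0.16.

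On the P4 and the shCtBP2 arrays 1 replicate stood apart in most of the MT1 and MT2A probes. P4 replicate 2 was the lowest of its group in 11 of the 13 probes, with a median of 0.66 against 0.91 to 1.22 on the other P4 arrays. On the shCtBP2 arrays replicate 3 was the highest in 11 of the 13 probes, with a median of 0.16 against -0.21 to -0.05 on the others. The HIPP medians were closer together, at 1.12, 1.16, 1.01, 1.06 and 1.26 for replicates 1 to 5, and the probes did not share 1 lowest array, replicates 1 and 4 each being the lowest in 5 of the 13. The arrays came from 4 slides, and slide 3 held 2 HIPP and 2 shCtBP2 arrays. On slide 3 both HIPP arrays were above both shCtBP2 arrays in 13 of 13 probes, by a median difference of 1.35 (0.56 to 1.95), as were 39.0% of all probes measured on the 4 arrays. SLC30A1 did not separate there, with a difference of 0.12. P4 replicates 1 to 4 filled slide 1, which was scanned apart from the others, and P4 replicate 5 shared slide 2 with 3 HIPP arrays. There the mean HIPP value minus the P4 value had a median of -0.20 over the 13 probes (-0.51 to -0.03).

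Differences between treatments were tested in the same fit, which also removes a probe's constant dye effect. HIPP minus shCtBP2 was tested for the 7 probes that passed the filter in both, and 4 of them differed, all higher with HIPP, where 13.7% of all probes tested did. These were MT1E A_23_P206724 (difference 1.49, adjusted p = 5.09e-05), MT1F (1.25, adjusted p = 5.98e-06), MT1G A_23_P60933 (1.42, adjusted p = 2.2e-05) and MT1H A_23_P163782 (1.09, adjusted p = 3.26e-05). P4 minus shCtBP2 gave the same 4 of 7 probes, where 6.51% of all probes tested were higher, with differences of 1.23, 1.46, 1.28 and 1.05 (adjusted p = 0.00138, 8.97e-06, 0.000244 and 0.000218). Without the interquartile range filter 13 of 16 differed for HIPP, where 14.0% of all probes did, among them 12 of the 13 MT1 and MT2A probes and SLC30A1 (0.96, adjusted p = 0.0372). For P4 12 of 16 did, where 6.70% of all probes did, and SLC30A1 was not among them. With the filter and without dye normalization 0 differed in either comparison. MT1G A_23_P60933 and MT1H A_23_P163782 were among the probes not tested in that setting, so for them the 0 is no failed test. The MT1 and MT2A differences then had medians of 0.51 for HIPP and 1.15 for P4, against -0.67 and -0.14 for all probes, with 13 of 13 above 0 in both, and 28 of 26873 probes differed for P4 minus shCtBP2.

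HIPP and P4, which differ in the hydroxyimino and hydrazone groups, were compared in 16 probes, and in the fit without a block 0 differed after adjustment over all probes, where 13.0% of all probes tested did. With the slide as a fixed block, since P4 replicates 1 to 4 have a slide of their own, 0 of the 16 and 6 of 33204 probes differed. At an unadjusted p under 0.05, limma gave 1 of the 16, SLC30A1. Its difference was 0.83 with a 95% interval of 0.14 to 1.52 and an adjusted p of 0.116. With the replicate number as a block the adjusted p of this difference was 0.0445, so that SLC30A1 then passed, and with array weights the difference was 1.17 (adjusted p = 0.00588). Without HIPP replicate 4 it was 1.16 (adjusted p = 0.00407). It did not pass with the slide as a fixed (1.49, adjusted p = 0.227) or random block (0.83, adjusted p = 0.0893), with normexp and loess (0.78, adjusted p = 0.168), with the deposited ratios (0.83, adjusted p = 0.119) or with spots well above background alone (0.83, adjusted p = 0.0744). Over the 13 MT1 and MT2A probes the differences ran from -0.21 for MT1F to 0.26 for MT1E A_23_P206724, with adjusted p of 0.354 to 0.97. Of these differences 11 of 13 were above 0, and without dye normalization 0 of 13 were, with a median of -0.68 where the median of all probes was -0.57. For MT2A A_23_P106844 the difference was 0.11 with an interval of -0.26 to 0.48, and for MT1X A_23_P303242 0.03 with -0.26 to 0.31. The intervals leave room for differences of about these sizes in either direction, so the treatments are not shown to act alike.

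**Figure D3:**
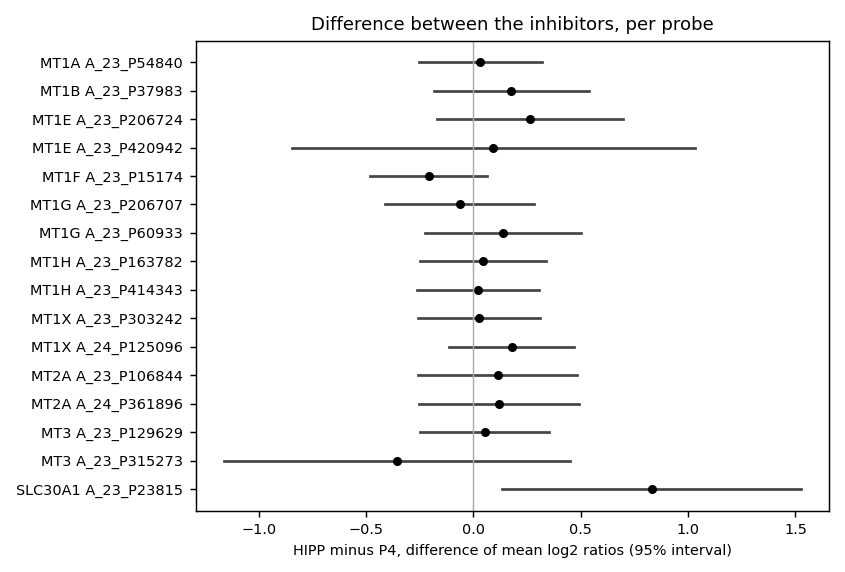
HIPP minus P4 difference of the mean log2 ratios for each of the 16 probes (dot) with its 95% interval (line). The intervals include 0 for every metallothionein probe, whereas that of SLC30A1 runs from 0.14 to 1.52 before adjustment over all probes.

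Among the 6 family probes outside the 10 genes, MT1L and MT1M followed the family. The MT1L probe A_23_P427703, for a pseudogene of the cluster, was called with HIPP (1.33 ± 0.16, adjusted p = 6.38e-07) and with P4 (1.12 ± 0.36, adjusted p = 1.75e-05). MT1M was called lower with shCtBP2 at -0.59 ± 0.26 (adjusted p = 0.0204), and it rose with HIPP (1.30 ± 0.36, adjusted p = 7e-06) and P4 (0.70 ± 0.42, adjusted p = 0.00329) short of the fold limits. The unnamed transcript THC2365798 gave 0.25 with HIPP (adjusted p = 0.0367) and 0.44 with P4 (adjusted p = 0.00267). MT1JP, another pseudogene, passed in no treatment, with means of -0.35, 0.02 and -0.07 for shCtBP2, HIPP and P4. MT4 and the MT1L probe A_24_P357405 were not well above background on any array.

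MTF1, the zinc-sensing factor that drives these promoters, was called with HIPP. It read 1.82, 2.37, 1.85, 2.08 and 2.26 on the HIPP arrays, 1.09, 0.66, 0.08, 0.74 and 0.78 on the P4 arrays and 0.43, 0.40, 0.38, 0.35 and 0.38 on the shCtBP2 arrays. The HIPP arrays overlapped neither of the other groups, and P4 replicate 3 lay below the shCtBP2 arrays. The means were 2.07 ± 0.25 (4.21-fold, adjusted p = 1.01e-08), 0.67 ± 0.37 (adjusted p = 0.000856) and 0.39 ± 0.03 (adjusted p = 0.0461), with only HIPP called. HIPP exceeded P4 by 1.41 (adjusted p = 3e-04, and 1.24 with adjusted p = 0.144 with the slide as a fixed block, and 0.77 with adjusted p = 0.463 without dye normalization) and shCtBP2 by 1.69 (adjusted p = 5.8e-06, and 0.97 with adjusted p = 0.229 without dye normalization), while P4 minus shCtBP2 was 0.28 (adjusted p = 0.328).

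**Figure D4:**
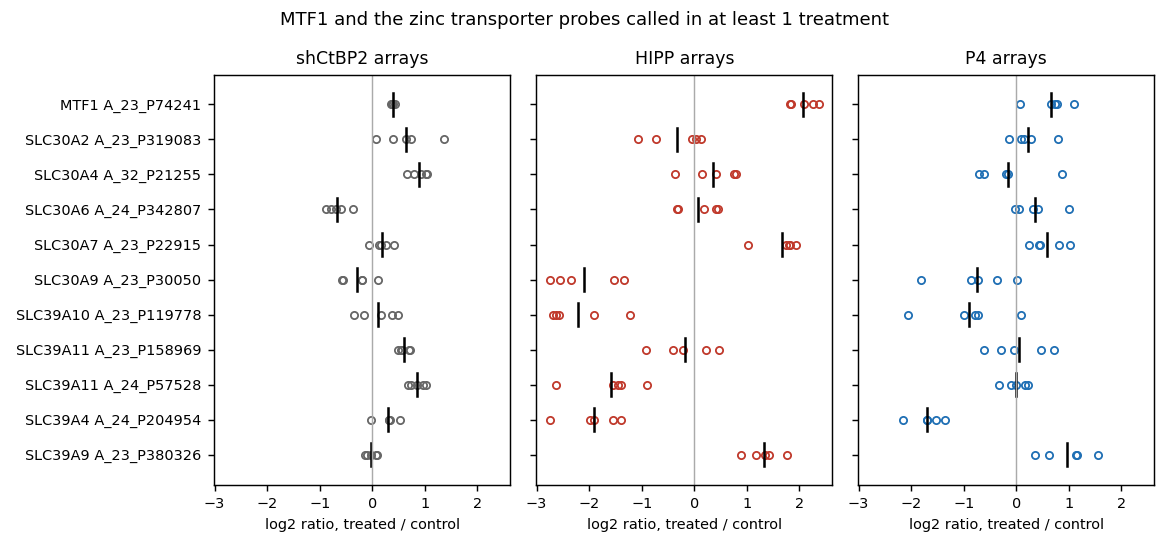
Log2 ratio of treated over control signal for MTF1 and the zinc transporter probes called in at least 1 treatment, with 1 circle for each array and a bar at the mean. MTF1 has means of 2.07 with HIPP, 0.67 with P4 and 0.39 with shCtBP2, and SLC30A7 has means of 1.66, 0.59 and 0.19.

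The other zinc transporters were mixed in direction. In either direction, 6.90% of all probes tested were called with shCtBP2, 8.45% with HIPP and 9.51% with P4. SLC30A proteins move zinc out of the cytosol, and of their 17 probes HIPP called 1 higher and 1 lower, shCtBP2 2 higher and 1 lower, and P4 0 in either direction. At the adjusted p alone P4 gave 2 higher and 1 lower of 15 tested, where 17.3% of all probes were higher and 15.8% lower. At that criterion HIPP gave 5 higher and 3 lower of 16 tested, SLC30A1 among the higher, where 26.2% of all probes were higher and 25.1% lower. SLC30A7, which loads zinc into the Golgi, rose with HIPP on the probe A_23_P22915, at 1.82, 1.81, 1.93, 1.01 and 1.75 with replicate 4 the lowest, a mean of 1.66 ± 0.37 (adjusted p = 1.77e-07). Its other probe, A_24_P563545, went the opposite way (-0.53 ± 0.25, adjusted p = 0.00358). SLC30A9 fell with HIPP (-2.10 ± 0.63, adjusted p = 3.79e-06). With shCtBP2, SLC30A4 rose on A_32_P21255 (0.89 ± 0.16, adjusted p = 0.00864), SLC30A6 fell on A_24_P342807 (-0.66 ± 0.20, adjusted p = 0.00971), and SLC30A2 was called on a probe not well above background in either channel, so no fold is given.

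SLC39A proteins bring zinc into the cytosol, and of their 21 probes HIPP called 0 higher and 3 lower, P4 1 higher and 2 lower, and shCtBP2 2 higher and 0 lower. At the adjusted p alone HIPP gave 4 higher and 5 lower of 16 tested, beside the same 26.2% and 25.1% of all probes. SLC39A10 fell with HIPP (-2.21 ± 0.64, adjusted p = 4.83e-06) and with P4 (-0.89 ± 0.77, adjusted p = 0.0145). SLC39A11 went opposite ways on A_24_P57528, lower with HIPP (-1.59 ± 0.64, adjusted p = 2.74e-06) and higher with shCtBP2 (0.85 ± 0.14, adjusted p = 0.00487), and its probe A_23_P158969 was also called with shCtBP2 at 0.60. SLC39A9 was called with P4 (0.96 ± 0.48, adjusted p = 0.00027) and had 1.32 ± 0.32 with HIPP (adjusted p = 4.15e-06), just under the limit of 2.5-fold. SLC39A4, the importer of dietary zinc, was called lower on A_24_P204954 with HIPP (adjusted p = 2.35e-07) and P4 (adjusted p = 4.63e-06). Its treated signal was not well above background on any HIPP array, which bounds the fall at 1.18-fold or more, and was so on 1 of the 5 P4 arrays. The SLC39A4 probe A_23_P20502 was higher with HIPP (0.63 ± 0.18, adjusted p = 6.96e-05).

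Lists of genes that respond to related stimuli were counted beside the family. The shares of all probes tested that were called higher, for comparison, were 4.12% with HIPP, 4.43% with P4 and 3.35% with shCtBP2. In either direction they were 8.45%, 9.51% and 6.90%. There were 14 probes for 10 NRF2 targets, which answer to oxidants and electrophiles. Of 12 tested in each inhibitor, HIPP called 2 higher and P4 6 higher, with medians of 0.66 and 0.69, and shCtBP2 called 0 with a median of -0.20. The fold limits differ between the inhibitors. At the adjusted p alone HIPP gave 8 higher and 2 lower, where 26.2% of all probes were higher and 25.1% lower. P4 gave 8 higher and 0 lower, where 17.3% were higher and 15.8% lower. HMOX1, the heme oxygenase, rose to 4.11 ± 0.37 with HIPP (adjusted p = 2.25e-10) and 2.45 ± 0.31 with P4 (adjusted p = 4.55e-08). Of 14 probes for copper-handling genes, only MTF1 was called, with HIPP. At the adjusted p alone 6 of 9 tested were higher with HIPP, where 26.2% of all probes were, and 6 of 11 tested with P4, where 17.3% were. Of 21 heat shock probes, HIPP called 4 higher and 1 lower of 19 tested (median 0.43), and shCtBP2 called 0 of 18. P4 called 0 higher and 3 lower of 16 (median -0.14), the 3 all for HSPA8. Of 11 probes for glucocorticoid targets, 10 of them tested in each treatment, HIPP called 1 higher, P4 1 higher and 1 lower, and shCtBP2 2 higher.

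The probes most like the family were sought among 17221 of the probes outside it that had a current symbol. The measure was the Pearson correlation over the 15 arrays with the mean of the 14 metallothionein probes well above background throughout. The 5 highest were FOSL2 (r = 0.981), SLC48A1 (0.978), HNRNPU (0.976), TERF2IP (0.976) and TMEM268 (0.976). The arrays form 3 treatment groups, so these values describe the likeness of group patterns and carry no test. FOSL2, an AP-1 subunit, had means of -0.76, 0.45 and 0.47 for shCtBP2, HIPP and P4, and SLC48A1, a heme transporter, -0.31, 0.93 and 0.88. TMEM268 had means of -0.17, 1.35 and 1.27, and HNRNPU -0.25, 0.82 and 0.61. TERF2IP moved less with the inhibitors, with means of -0.43, 0.20 and 0.17, and did not pass with P4 (limma adjusted p = 0.0796).

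**Figure D5:**
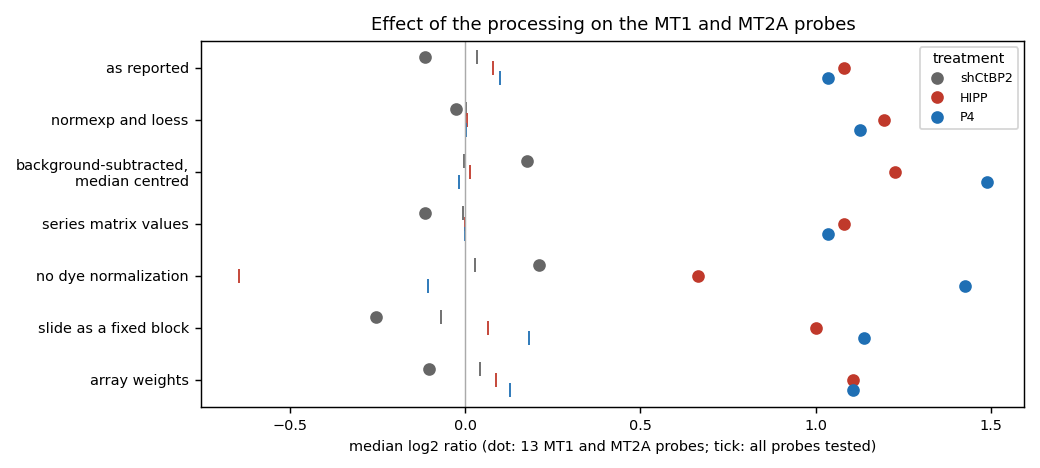
Median log2 ratio of the 13 MT1 and MT2A probes (dot) and of all probes tested (tick) under 7 ways of processing the arrays. The HIPP and P4 medians stay above the all-probe medians in each, whereas the shCtBP2 median runs from -0.25 to 0.21.

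The way the dyes were balanced changed the size of these ratios. Without dye normalization the median of all probes on the HIPP arrays was -0.64 and the MT1 and MT2A median 0.66, which is 1.31 above it. On the P4 arrays the medians were -0.11 and 1.43. The shCtBP2 median turned from -0.11 to 0.18 when background-subtracted signals were centred on the median of each array, so no direction is given for the family as a whole in shCtBP2 cells.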

How the data were processed

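Total RNA of MDA-MB-231 cells was measured on 15 Agilent 4x44K arrays, 5 per treatment. The authors corrected background and dye with Agilent Feature Extraction 9.5.3.1 and deposited processed signal intensities per spot, written with decimal commas. The authors also deposited a table of log10 ratios of Cy5 over Cy3, equal within rounding to those in the scanner files, which was used as an alternative. The notes name no other processing step. Groups came from the sample labels.

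Here, log2 of Cy5 over Cy3 processed signal was taken per spot, the 78 to 265 flagged spots of an array were left out, and spots of a probe were averaged. Probes measured on at least 3 of 5 arrays and above the lowest 11% of interquartile ranges over the 10 channel signals, as in the methods, were tested with limma 3.58.1 in R 4.3.3, in 1 fit over 15 arrays, with Benjamini-Hochberg adjustment over all probes tested. The methods' own test, a Student test between channels, was an alternative. Where 1 channel alone was not well above background, a bound is given, from normexp-corrected signals (offset 50). The ratios were tested against 0, which leaves out spread between controls if arrays shared a control extract. The precision is limited by the number of arrays. Scripts were tested on simulated data. Current symbols were assigned by RefSeq accession (23434 probes), symbol (2317) or synonym (1040), and 14209 of 41000 probes had none.

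The genes, gene lists and tests were chosen with earlier results of these data known. Named were all probes of the 10 genes, other family probes, MTF1, called SLC30A and SLC39A probes, and the 5 most similar probes. The lists were zinc exporters, zinc importers, copper handling, NRF2 targets, heat shock genes, glucocorticoid targets and markers of MDA-MB-231, luminal, fibroblast and white blood cells. The labels give the replicate numbers, with no statement of what they share. Deviations of same-numbered arrays correlated above 0.1 in all 5 pairs of P4 with shCtBP2 and in 4 of 5 pairs of the other comparisons, and a fit with the number as a block was an alternative. Alternatives covered background correction, dye normalization, filters, blocks, array weights, thresholds and leaving out each array. The value of CTBP2 checks the labels.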

Additional observations from a re-analysis of the deposited data

Results flagged for a closer look

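The 4 probes of MT1E, MT1F, MT1G and MT1H named above differed between treatments by the test of the difference itself. For HIPP minus shCtBP2 the differences were 1.49 for MT1E A_23_P206724, 1.25 for MT1F, 1.42 for MT1G A_23_P60933 and 1.09 for MT1H A_23_P163782. For P4 minus shCtBP2 they were 1.23, 1.46, 1.28 and 1.05 for MT1E, MT1F, MT1G and MT1H. MTF1 was higher with HIPP than with shCtBP2 by 1.69 and than with P4 by 1.41, the latter not passing with the slide as a fixed block (1.24, adjusted p = 0.144).

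Within groups of 5 arrays, 1 array stood far from the other 4 for 4 probes. MT1B read 0.18 on shCtBP2 replicate 3, where the next value was -0.17. MT1F read -0.65 on shCtBP2 replicate 4, where the next was -0.35. SLC30A7 read 1.01 on HIPP replicate 4, where the next was 1.75, and HNRNPU read 0.57 on HIPP replicate 1, where the next was 0.84. Chance sets an array apart in this way in about 1 of 20 groups. The rule was run over many groups of named probes, and whether 4 exceeds the number due to chance was not tested.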

How the results depend on the processing

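The count of 4 probes called with HIPP was 0 without dye normalization (an alternative chosen after seeing the data), 14 at any fold, 13 at 1.5-fold and 2 of the genes when probes of a gene were averaged. The count of 11 with P4 was 7 with probes averaged. The count of 1 with shCtBP2, a probe not well above background in control cells, was 0 with normexp and loess, with centred background-subtracted signals, with spots well above background alone, without dye normalization, with its own arrays alone, by the methods' t-test (4 for HIPP and 10 for P4) and with probes averaged, and 2 with the slide as a fixed block, with array weights and at any fold. HIPP minus shCtBP2, 4 of 7 tested, gave 12 with normexp and loess, 9 with centred background-subtracted signals, 9 with the deposited ratios, 10 with spots well above background, 13 without the interquartile range filter, 2 with probes averaged and 0 without dye normalization. P4 minus shCtBP2, also 4, gave 12, 9, 8, 8, 12, 2 and 0 in the same order, the 0 with a median MT1 and MT2A difference of 1.15, against 1.05 as reported, and with 28 of 26873 probes differing at all. Without the interquartile range filter the called counts were again 1, 4 and 11. Different probes pass the filter under these settings, and the cause of the other changes was not tested. Leaving out each array in turn gave 0 to 1 calls for shCtBP2, 4 to 4 for HIPP, 9 (without replicate 5) to 12 (without replicate 2) for P4, 4 to 5 differing for HIPP minus shCtBP2, 4 to 4 for P4 minus shCtBP2 and 0 to 1 for HIPP minus P4, the 1 being SLC30A1 without HIPP replicate 4. HIPP minus P4 also gave 1, SLC30A1, with array weights (1.17, adjusted p = 0.00588).

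Same-numbered arrays deviated partly together, as 13 of 15 correlations of their deviations were above 0.1 (-0.06 to 0.48) and 7 of 15 deviations correlated best with their own number. All 5 pairs of P4 with shCtBP2 were above 0.1 (0.14 to 0.35), and 4 of 5 were for HIPP with shCtBP2 and for HIPP with P4. The highest correlations, 0.48 and 0.36, were for HIPP with P4. This measure does not settle in which comparisons the numbers pair the arrays. With the replicate number as a block, HIPP minus P4 gave 1 probe, SLC30A1 (0.83, adjusted p = 0.0445), P4 gave 10 calls in place of 11, and the other 4 counts did not move.

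Of the member values under alternatives, 74 turned in direction, none of them called, and 1798 counted as the same. Where both fits tested a value, the same means that it kept its direction and side of the threshold. Where a fit did not test it, the same means a move of less than the SD over arrays, whatever the direction. Another 71 such untested values moved by more. Of the values tested in both, 37 came past the threshold and 21 fell short of it without turning. Most of the 74 were HIPP minus P4 differences near 0, and of these 74 the HIPP value of MT3 A_23_P129629 had passed the adjusted p. Outside the 10 genes, FOSL2 with HIPP had passed it and turned too. For HIPP minus shCtBP2, with normexp and loess, the log2 value was 0.00149 for MT3 A_23_P315273. For P4 minus shCtBP2, with normexp and loess, the log2 value was 0.00203 for MT3 A_23_P315273. For shCtBP2, with background-subtracted signals centred on the median, the log2 value was 0.18 for MT1G A_23_P60933 and 0.19 for MT1H A_23_P163782. For HIPP minus P4, with background-subtracted signals centred on the median, the log2 value was -0.30 for MT1A, -0.11 for MT1B, -0.0993 for MT1E A_23_P206724, -0.14 for MT1G A_23_P60933, -0.30 for MT1H A_23_P163782, -0.27 for MT1H A_23_P414343, -0.26 for MT1X A_23_P303242, -0.16 for MT1X A_24_P125096, -0.18 for MT2A A_23_P106844, -0.21 for MT2A A_24_P361896 and 0.0686 for MT3 A_23_P315273. For HIPP, without dye normalization, the log2 value was -0.23 for MT3 A_23_P129629, -0.95 for MT3 A_23_P315273 and -0.25 for FOSL2. For P4, without dye normalization, the log2 value was -0.20 for MT3 A_23_P315273. For HIPP minus shCtBP2, without dye normalization, the log2 value was -0.36 for MT3 A_23_P129629. For HIPP minus P4, without dye normalization, the log2 value was -0.68 for MT2A A_23_P106844, -0.71 for MT2A A_24_P361896 and -0.48 for MT3 A_23_P129629. For shCtBP2, with the slide as a fixed block, the log2 value was -0.13 for MT3 A_23_P129629. For P4, with the slide as a fixed block, the log2 value was -0.29 for MT3 A_23_P315273 and -0.66 for SLC30A1. For HIPP minus P4, with the slide as a fixed block, the log2 value was -0.089 for MT1A, -0.32 for MT1B, -0.20 for MT1E A_23_P206724, -0.51 for MT1E A_23_P420942, -0.37 for MT1G A_23_P60933, -0.0941 for MT1H A_23_P163782, -0.13 for MT1H A_23_P414343, -0.11 for MT1X A_23_P303242, -0.0446 for MT1X A_24_P125096, -0.46 for MT2A A_23_P106844, -0.40 for MT2A A_24_P361896, -0.19 for MT3 A_23_P129629 and 0.30 for MT3 A_23_P315273. For P4, with array weights, the log2 value was -0.039 for SLC30A1. For HIPP minus P4, with array weights, the log2 value was -0.00589 for MT1A, -0.0243 for MT1B, -0.14 for MT1E A_23_P420942, -0.0557 for MT1G A_23_P60933, -0.0261 for MT1H A_23_P414343, -0.0212 for MT1X A_23_P303242, -0.11 for MT2A A_23_P106844, -0.0762 for MT2A A_24_P361896 and -0.043 for MT3 A_23_P129629. These directions cover values tested in both fits. Counting untested values too, 9 of the 13 MT1 and MT2A probes were above 0 with shCtBP2 both with centred background-subtracted signals and without dye normalization, against 2 as reported, and 0 of 13 were above 0 for HIPP minus P4 without dye normalization, against 11. Leaving out 1 array at a time also turned some directions. For shCtBP2 the range was -0.10 to 0.0107 for MT1G A_23_P60933. For HIPP the range was -0.0222 to 0.30 for MT3 A_23_P315273. For HIPP minus P4 the range was -0.049 to 0.0869 for MT1A, -0.0353 to 0.11 for MT1H A_23_P163782, -0.0719 to 0.0831 for MT1H A_23_P414343, -0.0718 to 0.0802 for MT1X A_23_P303242, -0.17 to 0.44 for MT1E A_23_P420942, -0.12 to 0.0253 for MT1G A_23_P206707, -0.0382 to 0.13 for MT3 A_23_P129629, -0.00256 to 0.24 for MT1G A_23_P60933, -0.0326 to 0.23 for MT2A A_23_P106844 and -0.0304 to 0.23 for MT2A A_24_P361896. For P4 the range was -0.0686 to 0.23 for SLC30A1.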
